A study of Arabidopsis thaliana with 6 samples.

Results

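Mitochondrial complex I, the NADH dehydrogenase of the respiratory chain, was followed through the nuclear genes for its subunits. Members were the probe sets whose single annotated locus was among 40 listed nuclear loci, which included the GRIM-19 paralogues and the gamma carbonic anhydrases. A probe set was named for 26 of the 40 loci, 1 for each, among 22810 probe sets and 13286 genes with a probe set of their own. Seedlings were compared on 6 Affymetrix arrays, with 3 arrays of transgenic seedlings that overexpressed a rice cDNA, OsTOP6A1, and 3 arrays of wild type seedlings. Both genotypes carried the Columbia background and were 10 days old. The seeds of both were kept in the cold for 72 h, and the seedlings were grown in continuous light on agar medium with 2% sucrose. OsTOP6A1 encodes the A1 subunit of rice topoisomerase 6, an enzyme that changes the winding of DNA by cutting and rejoining both strands. Neither the promoter of the transgene nor the number of independent transgenic lines was stated in the labels. The labels call the arrays biological replicates.

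Complex I takes electrons from NADH in the mitochondrial matrix, passes them along iron-sulfur clusters to ubiquinone, and moves protons across the inner membrane. It is L-shaped, with a matrix arm that holds the NADH site and the iron-sulfur clusters and a membrane arm that moves the protons. Plant complex I also carries a domain of gamma carbonic anhydrases on its membrane arm. Some core subunits are encoded in the mitochondrial genome, while the remaining core subunits and the accessory subunits are encoded in the nucleus.

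In transgenic seedlings AT2G33220, a gene for the GRIM-19 subunit, was far brighter than in wild type seedlings, while the other 25 measured members lay within 0.41 log2 units of no change. GRIM-19 is an accessory subunit of the complex, known from mammals as the NDUFA13 protein. Of the 26 members 2 rose, 2 fell and 22 did not pass an adjusted p of 0.05 in limma. That is 15.4% of the members, beside 16.5% of all 22746 tested probe sets, 8.18% being called higher and 8.31% lower. The share of called members was thus close to the share among all probe sets. Every member had an intensity of at least 16 on every array, and among the 14745 tested probe sets with a mean of at least 16 the share called was 22.3%.

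The intensity of AT2G33220, in linear units, was 347, 372 and 354 on the 3 transgenic arrays, against 61.5, 52.8 and 45.6 on the 3 wild type arrays. The transgenic arrays were all high and the wild type arrays all low, with a wide gap between them. The means were 358 ± 12.9 in transgenic and 53.3 ± 7.96 in wild type seedlings (SD, n = 3 each), a ratio of 6.71 on the linear scale. On the log2(intensity + 16) scale, where folds of dim probe sets come out smaller, the change was 2.44 (SE 0.09, limma adjusted p = 8.16e-06). It ranked 25th from the top among the log2 fold changes of the 22746 probe sets. The call held under each of 15 alternative settings, with log2 fold changes of 1.85 to 2.73 and adjusted p of up to 0.00444. The probe set carried no suffix for cross-hybridisation. The other GRIM-19 gene, AT1G04630, had no named probe set and was not analysed here, so the 2 genes could not be compared.

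**Figure D1:**
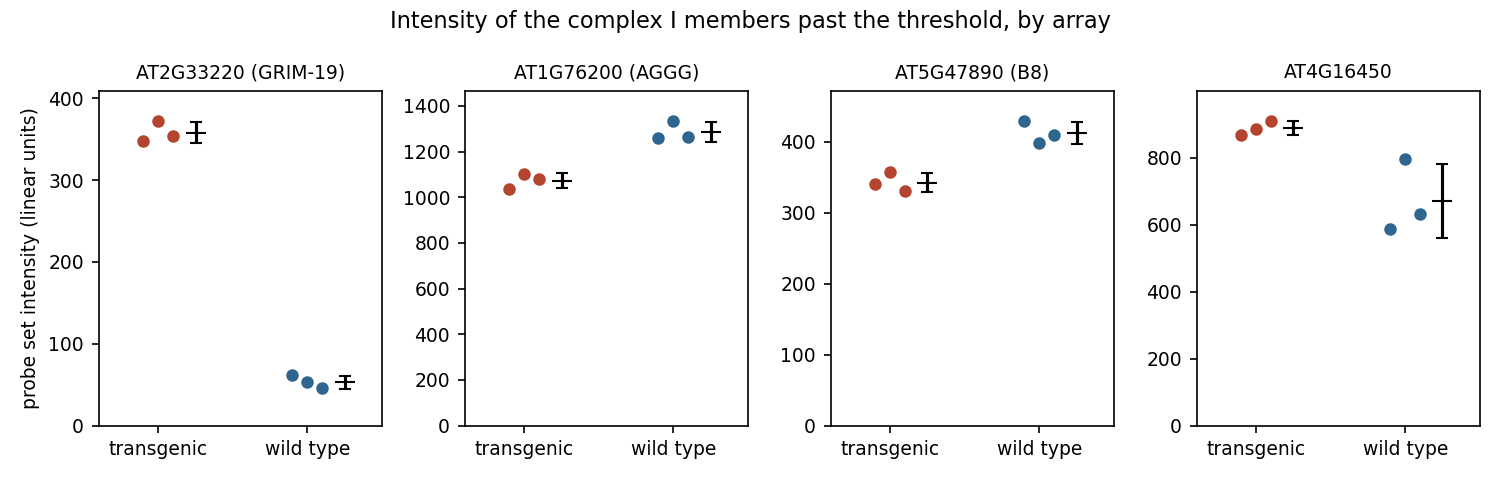
Probe set intensity in linear units for the 4 members past the threshold, with 3 transgenic arrays on the left and 3 wild type arrays on the right of each panel. Points are arrays, and the black bars give the mean and SD. For AT2G33220 the transgenic arrays lie between 347 and 372 and the wild type arrays between 45.6 and 61.5. The other 3 members show smaller gaps.

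The second rise was that of AT4G16450, an accessory subunit gene. Its intensities were 868, 884 and 909 on transgenic arrays and 586, 795 and 630 on wild type arrays. The genotypes did not overlap, although the second wild type array came close to the transgenic ones. The log2 fold change was 0.41 (SE 0.11, limma adjusted p = 0.0456). Without single arrays the call held only when wild type replicate 2 was left out (0.53, limma adjusted p = 0.00954). It ended without transgenic replicates 1, 2 or 3 and without wild type replicates 1 or 3, with adjusted p of 0.0947 to 0.136. It also ended with quantile normalization (adjusted p = 0.0529), without variance moderation (adjusted p = 0.156) and with a pseudocount of 1 (adjusted p = 0.119).

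The 2 falls were small. AT1G76200, for the AGGG subunit of the membrane arm (NDUFB2-type), had intensities of 1036, 1104 and 1079 on transgenic arrays, against 1259, 1334 and 1264 on wild type arrays. AT5G47890, for the B8 subunit of the matrix arm (NDUFA2-type), had 340, 357 and 331 on transgenic arrays, against 429, 399 and 409 on wild type arrays. In both genes all transgenic arrays lay below all wild type arrays. The log2 fold changes were -0.26 for AT1G76200 (SE 0.06, limma adjusted p = 0.0326) and -0.26 for AT5G47890 (SE 0.07, limma adjusted p = 0.0364). The call of AT5G47890 ended without each of the 6 arrays when it was left out (adjusted p of 0.065 to 0.116). The call of AT1G76200 held only without wild type replicate 1 and ended without the other 5 arrays (adjusted p of 0.0688 to 0.0984). With a pseudocount of 1 both calls ended (adjusted p = 0.0957 for AT1G76200 and 0.0981 for AT5G47890). The call of AT1G76200 also ended with centred array medians (adjusted p = 0.0555). With each array left out in turn the count of called members was 1 or 2, and AT2G33220 was among them each time.

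Of the 13 listed loci of the matrix arm 9 had a named probe set, with 0 rises, 1 fall and a median log2 fold change of -0.04. The fall was that of AT5G47890, but the largest log2 fold change in size was that of FRO1 (AT5G67590). FRO1 is the NDUFS4-type subunit, whose mutant was named frostbite for its cold sensitivity. FRO1 had intensities of 672, 784 and 688 on transgenic arrays, against 600, 606 and 536 on wild type arrays. Its arrays did not overlap either, but its log2 fold change of 0.29 did not pass (SE 0.09, limma adjusted p = 0.0589). It passed when probe sets with a mean under 16 were left out (adjusted p = 0.0347), with a variance trend (adjusted p = 0.0353) and with a pseudocount of 64 (adjusted p = 0.0409).

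The NDUFA9-type subunit gene AT2G20360 had 427, 395 and 442 on transgenic and 496, 483 and 488 on wild type arrays, without overlap. Its log2 fold change was -0.21 (limma adjusted p = 0.0759), and it passed with a variance trend (adjusted p = 0.038) and with a pseudocount of 64 (adjusted p = 0.0241). AT3G12260, for the B14 subunit, a protein of the LYR family, had means of 946 ± 45.1 in transgenic and 1060 ± 19.7 in wild type seedlings (SD, n = 3 each). Its log2 fold change was -0.16 (limma adjusted p = 0.142), and it passed with a pseudocount of 64 only (adjusted p = 0.0414). AT3G03070, of the NDUFS6 type, averaged 642 ± 26.5 in transgenic and 709 ± 51.4 in wild type seedlings (SD, n = 3 each), with a log2 change of -0.14.

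Both iron-sulfur subunits with a named probe set stayed near no change. AT5G11770, for PSST, which holds the last cluster before ubiquinone, had means of 776 ± 47.4 in transgenic and 800.1 ± 25.3 in wild type seedlings (SD, n = 3 each). AT4G02580, for the iron-sulfur subunit that neighbours the NADH site, had 908 ± 42.9 in transgenic and 923 ± 37.4 in wild type seedlings (SD, n = 3 each). Their log2 fold changes were -0.04 and -0.02. The 95% intervals were from -0.21 to 0.12 for PSST and from -0.18 to 0.14 for AT4G02580. AT5G52840, for B13 (NDUFA5-type), averaged 702 in both genotypes, with SDs of 44.6 in transgenic and 28.9 in wild type seedlings (n = 3 each). AT3G03100, for B17.2 (NDUFA12-type), had a log2 change of 0.04, with a wild type SD of 94.1 around a mean of 683, against 13.6 around 699.5 in transgenic seedlings (n = 3 each). The genes for the subunit with the NADH and FMN site (AT5G08530), for the largest iron-sulfur subunit (AT5G37510) and for both TYKY proteins (AT1G79010 and AT1G16700) were not analysed here.

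**Figure D2:**
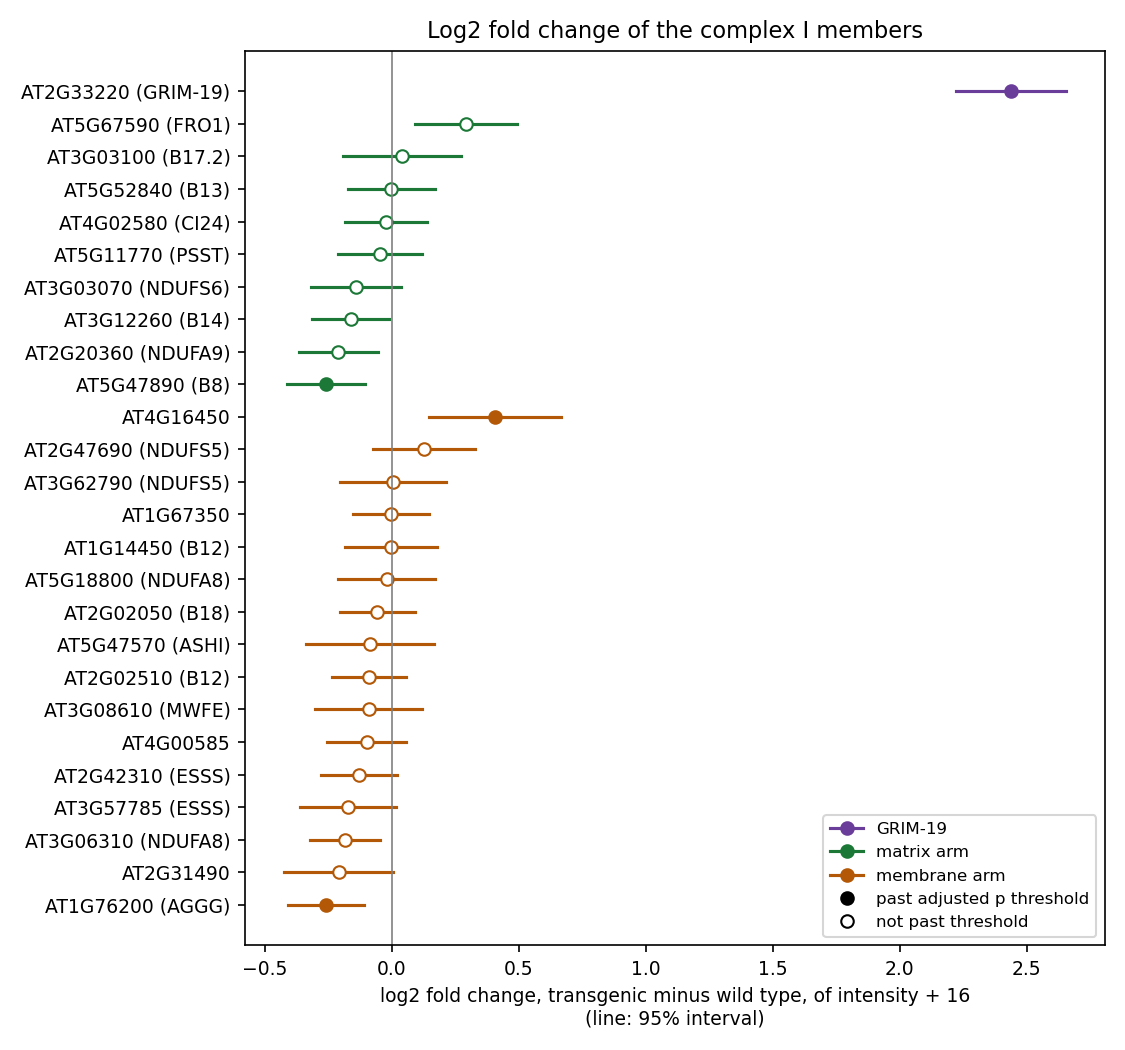
Log2 fold change of intensity + 16, transgenic minus wild type, for each of the 26 members, with its 95% interval as a line. Filled points passed an adjusted p of 0.05 and open points did not, and colours give the role group. AT2G33220 stands at 2.44, while the other members lie between -0.26 and 0.41.

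Of the 20 listed loci of the membrane arm and the accessory subunits grouped with it 16 had a named probe set. Among these were 1 rise and 1 fall, with a median log2 fold change of -0.09. The brightest member was AT3G08610, for MWFE (NDUFA1-type), with 1825, 1623 and 1598 on transgenic arrays and 1864, 1615 and 1902 on wild type arrays. Its genotypes overlapped, with a log2 change of -0.09 and a 95% interval of -0.30 to 0.12. AT5G47570, for ASHI (NDUFB8-type), had 820, 1035 and 1016 on transgenic arrays, against 1080, 923 and 1038 on wild type arrays, again with overlap. AT2G02050, for B18 (NDUFB7-type), averaged 481 ± 17.8 in transgenic and 501 ± 11.0 in wild type seedlings (SD, n = 3 each), with a log2 change of -0.06. AT1G67350 averaged 888 ± 37.3 in transgenic and 889 ± 11.8 in wild type seedlings (SD, n = 3 each), with a log2 change of -0.0023. AT4G00585 had means of 318 ± 12.6 in transgenic and 342 ± 13.5 in wild type seedlings (SD, n = 3 each), with a log2 change of -0.10. AT2G31490 had 499, 540 and 633 on transgenic arrays, all below 641, 649 and 642 on wild type arrays, but its log2 fold change of -0.21 did not pass (SE 0.09, limma adjusted p = 0.175). The genes for PDSW (AT1G49140 and AT3G18410) were named only for a probe set that they shared. CIB22 (AT4G34700) and AT1G67785 had no named probe set, and none of these genes was analysed here. All 5 genes of the gamma carbonic anhydrase domain had no named probe set either, so that domain was not read. The annotation left 8730 tested probe sets unlisted.

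Several subunits have 2 genes, and 4 of the 9 listed pairs had a named probe set for both. The question was whether 2 genes for 1 subunit changed by unequal amounts, so the log2 difference between them was taken within each array and compared between the genotypes. For the NDUFA8-type genes, AT3G06310 had 150, 145 and 147 on transgenic and 170, 167 and 172 on wild type arrays, while AT5G18800 had 393, 439 and 444 on transgenic and 455, 441 and 397 on wild type arrays. The arrays of AT3G06310 did not overlap and those of AT5G18800 did. The log2 fold changes were -0.18 for AT3G06310 (limma adjusted p = 0.0793) and -0.02 for AT5G18800. AT3G06310 passed with a variance trend (adjusted p = 0.0494), without variance moderation (adjusted p = 0.0206) and with a pseudocount of 64 (adjusted p = 0.014). The within-array difference changed by -0.16 between transgenic and wild type arrays, with SDs of 0.12 in transgenic and 0.11 in wild type arrays (exact two-sided permutation p = 0.3, n = 3 each, adjusted p = 0.5 over the 4 pairs).

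The other 3 pairs were compared in the same way. For the NDUFS5-type genes AT2G47690 and AT3G62790 the log2 fold changes were 0.13 and 0.0065, and the difference between them changed by 0.12 (exact permutation p = 0.3). For the B12 genes (NDUFB3-type) AT1G14450 and AT2G02510 the log2 fold changes were -0.0027 and -0.09, and the difference changed by 0.09 (exact permutation p = 0.4). For the ESSS genes (NDUFB11-type) AT2G42310 and AT3G57785 the log2 fold changes were -0.13 and -0.17, and the difference changed by 0.04 (exact permutation p = 0.5). AT2G42310 averaged 526 ± 24.6 in transgenic and 576 ± 5.94 in wild type seedlings, and AT3G57785 averaged 176 ± 15.9 in transgenic and 201 ± 10.1 in wild type seedlings (SD, n = 3 each). With 3 arrays against 3 this exact test cannot go below 0.1, so no change of any size could have passed 0.05, and the values stand as a description.

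**Figure D3:**
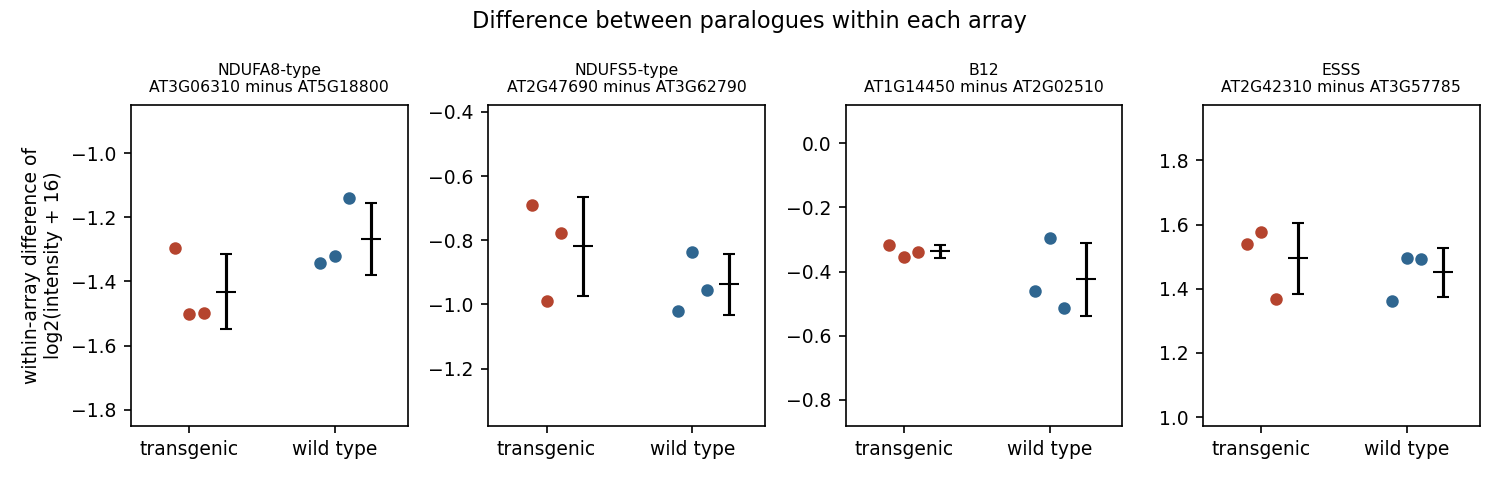
Within-array difference of log2(intensity + 16) between the 2 genes of each of 4 pairs, with 3 transgenic arrays left of 3 wild type arrays. Points are arrays, black bars give the mean and SD, and each axis spans the same length. The genotypes overlap in each pair, and the changes lie between -0.16 and 0.12.

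Among the 22 members that did not pass, the 95% interval of the log2 fold change lay between -0.42 and 0.49 in each case, taken gene by gene. Each of the 22 intervals excluded a change of 1.5-fold in either direction on the log2(intensity + 16) scale. The spread between arrays of 1 genotype was small, with a median log2 SD of 0.08 over the members and of 0.10 over the probe sets with a mean of at least 16. Of the 26 members 20 had a log2 fold change below 0 (76.9%), beside 54.3% of all tested probe sets and 58.7% of those with a mean of at least 16. The median over the members was -0.07, beside -0.02 over all tested probe sets and -0.05 over those with a mean of at least 16. In 14 members (53.8%) the arrays of the genotypes did not overlap, with 3 higher and 11 lower in transgenic seedlings. The same held for 34.9% of all tested probe sets, 15% higher and 19.9% lower. Among those with a mean of at least 16 it held for 44.9%, with 26.8% lower. No test was made of these shares. The median log2(intensity + 16) of the 26 members was 9.13, 9.15 and 9.27 on transgenic arrays, against 9.25, 9.28 and 9.26 on wild type arrays. Transgenic replicates 1 and 2 lay below the wild type arrays and transgenic replicate 3 among them.

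The arrays carried the signal of whole seedlings. Of the 5 listed leaf markers LHCB4.1, RCA and PSAE-1 were read, while RBCS1A and LHCB2.1 were not. The 4 listed root markers PYK10, NAI2, EXPA7 and EXPA18 were all read, and 0 of these 7 markers passed. Their summed intensity was 10474 to 11458 on transgenic and 9475 to 11247 on wild type arrays for leaf, and 3845 to 4375 on transgenic and 3790 to 4329 on wild type arrays for root. None of the 3 seed markers had a named probe set. Signal for the 3′ end over the 5′ end of the actin control was 2.50 to 2.53 on transgenic arrays, against 2.11 to 2.32 on wild type arrays. For the GAPDH control it was 0.942 to 1.0 on transgenic and 0.954 to 1.14 on wild type arrays, and for the ubiquitin control 1.25 to 1.37 on transgenic and 1.34 to 1.40 on wild type arrays. Actin thus lay higher on transgenic arrays without overlap, while the ranges of the other controls overlapped. Their part in the differences given here was not tested. In whole seedlings fewer cells of a type and less RNA per cell cannot be told apart.

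Complex I subunits encoded in the mitochondrial genome were reported by 15 single-gene probe sets, 14 of them with a mean under 16. The exception was nad4, a proton-pumping subunit, with 108, 105 and 127 on transgenic arrays and 135, 106 and 116 on wild type arrays, which overlapped. Of the 7 probe sets for nad1, a subunit of the membrane arm, 2 rose and 5 did not pass. The clearer of the 2 had intensities of 15.9, 17.1 and 22.4 on transgenic arrays, against 4.5, 6.9 and 6.2 on wild type arrays, with a log2 change of 0.65 (limma adjusted p = 0.00324). The second had 16.3, 17.1 and 11.2 on transgenic and 1.7, 9.0 and 6.5 on wild type arrays (0.52, limma adjusted p = 0.0428), and its call held without wild type replicate 2 but ended without each of the other 5 arrays. That call also ended with quantile normalization (adjusted p = 0.0533), with pseudocounts of 1 (adjusted p = 0.157) and 64 (adjusted p = 0.0574), and without variance moderation (adjusted p = 0.167). At these dim levels the pseudocount sets the size of the log2 change, which was 1.5 with a pseudocount of 1 and 0.24 with 64 for the clearer probe set, and 1.41 and 0.18 for the second. All 7 probe sets for nad1, which report 1 gene, had log2 changes above 0. So had 12 of the 15 probe sets of the mitochondrial genome, with a median of 0.14. Over all tested probe sets 10386 of 22746 lay above 0. The share called was 13.3% of these 15 probe sets, beside 16.5% of all tested probe sets. Of the 3751 calls over all tested probe sets 3286 were in the 14745 with a mean of at least 16. The share called among dimmer probe sets was therefore below 16.5%, so that figure is not a like background for this dim list. No test was made of these shares. Of the 3 listed assembly genes GLDH, for an enzyme of ascorbate synthesis that is also needed to assemble complex I, had a probe set, with a log2 change of -0.007.

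Electrons can also reach ubiquinone without complex I, through alternative NAD(P)H dehydrogenases that move no protons. Of these 5 of 7 had a named probe set, with 1 rise, while 8.18% of all tested probe sets were called higher. Of the 1861 probe sets called higher 1577 had a mean of at least 16, so the share among dimmer ones was below 8.18%. NDB4 had 14.1, 14.4 and 12.3 on transgenic arrays, against 7.0, 8.1 and 2.0 on wild type arrays, all under 16, with a log2 change of 0.46 (limma adjusted p = 0.0325). Its call ended without transgenic replicates 1, 2 or 3 (adjusted p of 0.0753 to 0.103), without variance moderation (adjusted p = 0.134) and with a pseudocount of 1 (adjusted p = 0.14). Its log2 change was 1.28 with a pseudocount of 1 and 0.16 with 64. NDB2, the isoform often induced together with alternative oxidase, had 169, 127 and 129 on transgenic arrays and 268, 201 and 169 on wild type arrays. Its log2 fold change of -0.52 did not pass (SE 0.17, limma adjusted p = 0.0762). None of the 5 alternative oxidase genes had a named probe set.

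The remaining complexes of the chain were read from 29 genes, of which 1 rose, 4 fell and 24 did not pass. The 5 called of 29 are a share close to the 16.5% of all tested probe sets. The rise was QCR8 (AT3G10860), a small subunit of complex III, with 1180, 1170 and 1261 on transgenic arrays, against 665, 621 and 786 on wild type arrays. All 3 transgenic arrays stood well above the wild type arrays, with a log2 change of 0.79 (SE 0.10, limma adjusted p = 0.0017), and the call held under each of the 15 alternatives. CYC1-1, for cytochrome c1, fell by 0.28 on the log2 scale (limma adjusted p = 0.0332). CYC1-2, also for cytochrome c1, lay the other way, with 538, 573 and 567 on transgenic arrays, against 470, 533 and 529 on wild type arrays. Its arrays did not overlap, but its log2 change of 0.13 did not pass (limma adjusted p = 0.296). The 13 measured genes of complex III and cytochrome c had a median log2 fold change of -0.05, with QCR8 and CYC1-1 being the only ones past the threshold. Complex II had 4 measured genes with 0 calls and a median of 0.03, and the mitochondrial ATP synthase had 5 with 0 calls and a median of -0.09.

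Complex IV, cytochrome c oxidase, had 7 measured genes, of which 0 rose, 3 fell and 4 did not pass, with a median log2 fold change of -0.26. COX5B-1 (AT3G15640) had 286, 332 and 347 on transgenic arrays, against 425, 421 and 400 on wild type arrays, and fell by 0.36 on the log2 scale (SE 0.08, limma adjusted p = 0.0276). COX5C-2 fell by 0.26 (limma adjusted p = 0.0299) and COX5C-3 by 0.29 (limma adjusted p = 0.0401). All 7 genes had log2 fold changes below 0, and in 6 of them all transgenic arrays lay below all wild type arrays. Over all tested probe sets 54.3% lay below 0 and 19.9% were lower without overlap (58.7% and 26.8% of those with a mean of at least 16), and 16.5% were called (22.3%). The call of COX5B-1 held only without transgenic replicate 3, those of COX5C-2 and COX5C-3 only without wild type replicate 1, and that of CYC1-1 only without wild type replicate 2. Each of these calls ended when any of the other 5 arrays was left out (adjusted p of 0.0536 to 0.124). With a pseudocount of 1 all 4 ended too (adjusted p of 0.084 to 0.1). Without variance moderation those of COX5B-1, COX5C-3 and CYC1-1 ended (adjusted p of 0.0632 to 0.0916), and with centred array medians that of COX5C-3 (adjusted p = 0.0595). With replicate number as a block those of COX5C-2, COX5C-3 and CYC1-1 ended (adjusted p of 0.05455 to 0.06298). Whether complex IV differed from complex I in its change was not tested.

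**Figure D4:**
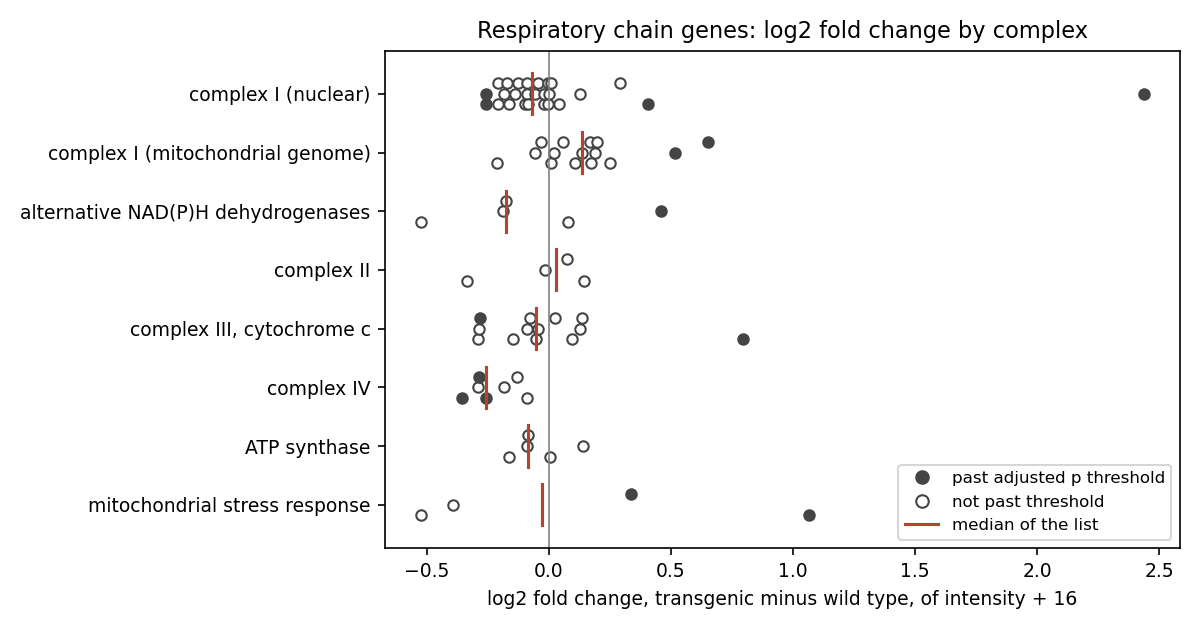
Log2 fold change of intensity + 16, transgenic minus wild type, for genes of the respiratory chain and of the mitochondrial stress response, 1 row for each list. Filled points passed an adjusted p of 0.05, open points did not, and red bars are list medians. The nuclear complex I genes have a median of -0.07 with AT2G33220 at 2.44, and the complex IV genes have a median of -0.26.

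Genes that respond to mitochondrial dysfunction were set beside the complex I genes. Of 8 listed genes 4 had a named probe set, with 2 rises and 0 falls. Over all tested probe sets 8.18% were called higher and 8.31% lower, and no test was made of this count. UPOX (AT2G21640), a gene of a mitochondrial protein induced by oxidative stress, had 116, 63.8 and 64.6 on transgenic arrays, against 28.2, 25.3 and 34.6 on wild type arrays. Transgenic replicate 1 was the highest, and the genotypes did not overlap. The log2 fold change was 1.07 (SE 0.19, limma adjusted p = 0.0103), a call that ended without variance moderation (adjusted p = 0.0931). At12Cys-2 (AT5G09570) had 75.7, 81.8 and 69.4 on transgenic arrays, against 48.5, 61.3 and 60.2 on wild type arrays. It rose by 0.34 on the log2 scale (limma adjusted p = 0.048), a call that ended without each of the 6 arrays when it was left out (adjusted p of 0.0707 to 0.145). That call also ended with a pseudocount of 1 (adjusted p = 0.109), without variance moderation (adjusted p = 0.139) and with replicate number as a block (adjusted p = 0.05487). NDB2, given with the alternative dehydrogenases, and HSP23.5, a mitochondrial small heat shock protein gene with a log2 change of -0.39 (limma adjusted p = 0.176), did not pass. Of the 4 log2 changes 2 lay above 0 and 2 below, with a median of -0.03.

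**Figure D5:**
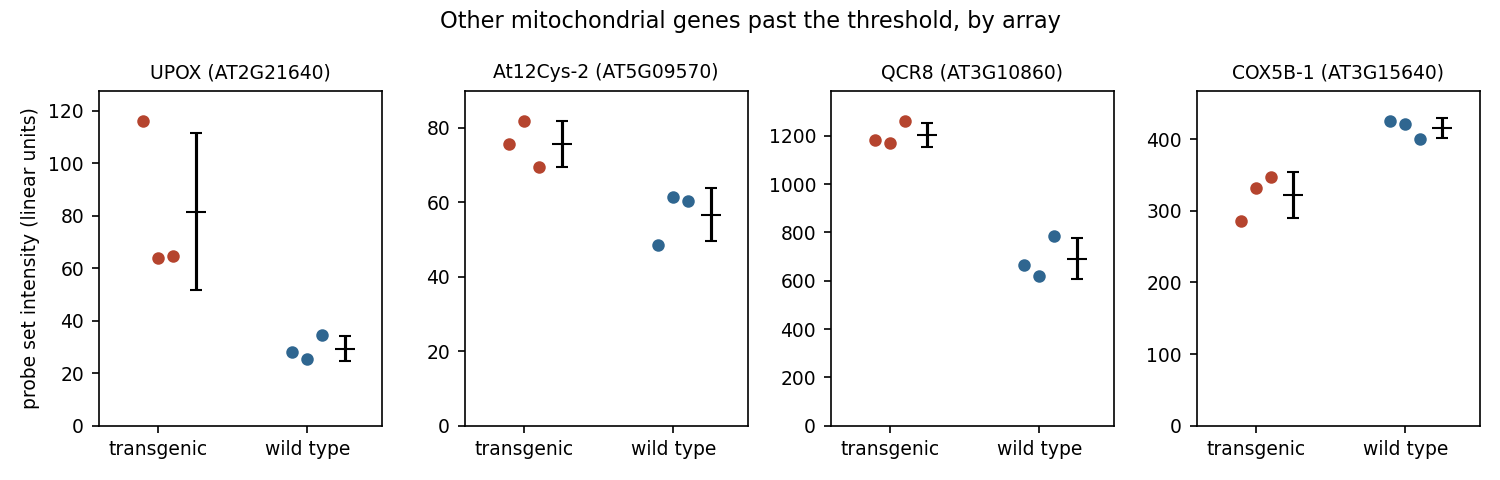
Probe set intensity in linear units for UPOX, At12Cys-2, QCR8 and COX5B-1, with 3 transgenic arrays on the left and 3 wild type arrays on the right of each panel. Points are arrays and black bars give the mean and SD. UPOX, At12Cys-2 and QCR8 are higher and COX5B-1 is lower in transgenic seedlings.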

How the data were processed

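Per the labels' protocols, TRIzol RNA was converted to biotin-labelled cRNA, 5 ug for each array. The deposited values are linear intensities, 1 for each probe set, and the software behind them is not given in the sources used here. With 2% trimmed from each end all arrays averaged 100.01, so they were not scaled again. Of 22810 probe sets 64 controls were left out. The platform annotation gave 1 gene for 13513 tested probe sets, several for 503 and left 8730 unlisted. Loci came from RefSeq's table of TAIR10.1 by gene identifier, which held 13436 of them. Both PDSW genes were listed for 1 and the same probe set, which was therefore no member. For other respiratory genes the probe set with the highest mean stood for a gene. For mitochondrial genes every single-gene probe set was kept, matched by symbol.

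Log2(intensity + 16) was fitted with lmFit and eBayes of limma 3.58.1 (R 4.3.3), transgenic minus wild type, with Benjamini-Hochberg adjustment over 22746 probe sets and a threshold of 0.05. The fit was tested on simulated data. Members, lists and pairs were chosen with earlier results of these data known. Named were the members past the threshold, AT2G33220, those with the smallest p and the brightest in each role group, both genes of each pair, and up to 4 called genes for each other list. FRO1, NDB2, HSP23.5, nad4, GLDH and the other members given with values were added to describe all members and lists. No detection calls or scan batches were used here, and the number of arrays limits the precision.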

Additional observations from a re-analysis of the deposited data

How the results depend on the processing

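The direction and the call of AT2G33220 and of QCR8 held under the 15 alternatives run, and the members' median stayed below 0 in each of them on the log2 scale (-0.09 to -0.04). The count of 4 called members (2 higher, 2 lower) did not hold. It was 1 (1 higher, 0 lower) with a pseudocount of 1 and 8 (5 lower) with a pseudocount of 64. It was 7 (4 lower) with a variance trend. The higher count was 1 with quantile normalization and without variance moderation, and the lower count was 1 with centred array medians. With the replicate block the count was 2, with 0 lower (adjusted p = 0.0527 for AT1G76200 and 0.0669 for AT5G47890). Without single arrays it was 1 to 2, with 1 to 2 higher and 0 to 1 lower. The 10 called genes or probe sets of the other respiratory and stress lists became 3 with a pseudocount of 1, 4 without variance moderation and 4 to 6 without single arrays. The 3751 calls over all probe sets became 2143 with a pseudocount of 1, 1930 without variance moderation and 2181 to 3433 without single arrays. The number of members whose arrays did not overlap stayed between 12 and 17.

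The labels number the arrays of each genotype 1 to 3 but name no shared batch, so the numbers were not taken as pairs. Deviations from the genotype means correlated at 0.19, 0.057 and 0.11 for numbers 1, 2 and 3. Arrays of unlike number were not compared in this way, so these values cannot tell whether the arrays were paired. The block gave 3592 calls over all probe sets and 8 over the other lists. Paralogue differences ranged from -0.23 to 0.20 over the settings in which they were run. The causes of these shifts were not tested. Each member was above 16 on every array. Means under 16 were found for 14 of the 15 probe sets of the mitochondrial genome. The same held for 2 of 5 alternative NAD(P)H dehydrogenases, NDB4 among them, and for 1 of 4 complex II genes. Detection calls were not used, so signal over background was not tested.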

Other observations

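The genes beside the changed members on the chromosomes were looked up after the members' values had been seen, taking the 2 nearest named probe sets on each side in the RefSeq order of protein-coding genes. Beside AT2G33220 on chromosome 2, AT2G33250, with 3 genes between, had 84.1, 92.3 and 101 on transgenic arrays, against 50.3, 58.0 and 72.5 on wild type arrays, and rose by 0.51 on the log2 scale (limma adjusted p = 0.0226). AT2G33255 had a log2 change of 0.15 and did not pass (limma adjusted p = 0.174). On the other side AT2G33180 and AT2G33170 had log2 fold changes of -0.06 and 0.04 and did not pass. Beside AT4G16450 on chromosome 4, its immediate neighbour AT4G16447 had 50.1, 55.0 and 64.5 on transgenic arrays, against 38.9, 29.3 and 42.2 on wild type arrays, and rose by 0.46 (limma adjusted p = 0.0336). The 3 other probe sets beside AT4G16450 did not pass. Beside AT5G47890 and AT1G76200, which fell, 1 of 4 probe sets each rose and none fell. These were AT5G47800 with a log2 change of 0.62 (limma adjusted p = 0.0289) and AT1G76170 with 0.45 (limma adjusted p = 0.0347). Both were under 16 on all wild type arrays, with 9.2, 15.9 and 4.9 for AT5G47800 and 8.7, 14.4 and 10.1 for AT1G76170. Over all tested probe sets 8.18% were called higher and 8.31% lower. Whether the genes beside changed members differ from these shares was not tested.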
